A study of Mus musculus with 6 samples.

Results

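The Krueppel-like factors (KLFs) are transcription factors with a shared zinc finger domain at the carboxyl end, and 9 of their genes were followed here in mouse embryonic stem cells given the small molecule SC1: Klf2, Klf3, Klf4, Klf5, Klf6, Klf7, Klf9, Klf10 and Klf13. The members were found by the transcript accession printed for each array probe. Each of the 9 genes had 1 probe, printed as 1 spot, and all were well above background on all 6 arrays. They are 9 of 37074 genes and genomic intervals on the array and 9 of the 25439 that were bright enough to test.

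The cells were J1 embryonic stem cells, an established line labelled with the strain 129S4/SvJae and the inner cell mass as its origin. They had been adapted to growth on gelatin and were kept in serum replacement medium with 1000 U/ml of leukaemia inhibitory factor (LIF), which all samples received. One group of 3 samples was treated with 1 µM SC1 for 6 h and the other group of 3 with the solvent DMSO for 6 h. The field that describes the treatment names SC1 for all samples, so the groups were taken from the sample titles. The compound is the one called pluripotin in the literature, where it is described as an inhibitor of ERK1 and of RasGAP that keeps mouse embryonic stem cells undifferentiated. The labels name no separate cultures for the replicates, and the p-values therefore rest on the spread among these 6 samples, which may be technical.

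The fingers of KLF proteins bind GC-rich DNA, the GC box and the CACCC box, which they share with the related SP proteins. What a member does there depends on the rest of the protein: KLF2, KLF4 and KLF5 act mainly as activators and belong to the circuit that holds embryonic stem cells in the naive state, KLF3 calls in the corepressor CtBP, and KLF9, KLF10 and KLF13 call in the corepressor SIN3A. Several KLF genes respond quickly to outside signals, Klf4 to LIF through STAT3, Klf2 to ERK5 through MEF2 and Klf10 to TGF-beta.

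Because the family binds GC and CACCC boxes, the promoters of Klf3, Klf6 and Klf7, the most changed members with a promoter in the table, and of the naive-state pair Klf2 and Klf4 are shown as context for the values that follow. Each is the 250 bases before the transcription start in RefSeq (GRCm38.p6), written on the strand of the gene. Capitals mark the GC box (GGGCGG), the CACCC box (CCACCC), the E-box (CACGTG) and the MEF2 site, each found on either strand. Klf3 lies on the plus strand (chr5:64803271-64803520), Klf6 on the plus strand (chr13:5861239-5861488), Klf2 on the plus strand (chr8:72318812-72319061), Klf4 on the minus strand (chr4:55532476-55532725) and Klf7 on the minus strand (chr1:64121390-64121639).
Klf3: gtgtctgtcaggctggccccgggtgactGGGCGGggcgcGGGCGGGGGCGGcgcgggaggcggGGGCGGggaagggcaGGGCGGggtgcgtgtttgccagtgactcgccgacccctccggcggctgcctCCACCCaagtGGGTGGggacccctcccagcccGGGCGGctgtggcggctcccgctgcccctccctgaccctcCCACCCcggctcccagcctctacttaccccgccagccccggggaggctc
Klf6: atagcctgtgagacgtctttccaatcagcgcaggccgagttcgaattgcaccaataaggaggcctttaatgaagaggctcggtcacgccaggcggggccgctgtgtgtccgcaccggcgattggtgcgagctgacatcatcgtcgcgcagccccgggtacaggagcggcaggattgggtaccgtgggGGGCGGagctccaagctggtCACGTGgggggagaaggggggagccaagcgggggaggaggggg
Klf2: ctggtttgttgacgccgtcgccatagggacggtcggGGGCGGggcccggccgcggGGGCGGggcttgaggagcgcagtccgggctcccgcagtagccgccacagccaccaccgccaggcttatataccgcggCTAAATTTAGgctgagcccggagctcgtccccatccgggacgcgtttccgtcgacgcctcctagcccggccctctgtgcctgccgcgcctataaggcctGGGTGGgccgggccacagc
Klf4: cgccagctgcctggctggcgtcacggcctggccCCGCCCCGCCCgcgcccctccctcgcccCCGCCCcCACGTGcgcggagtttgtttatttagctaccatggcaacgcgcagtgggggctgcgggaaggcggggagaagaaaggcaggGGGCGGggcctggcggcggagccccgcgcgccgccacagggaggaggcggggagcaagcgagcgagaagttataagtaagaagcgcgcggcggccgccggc
Klf7: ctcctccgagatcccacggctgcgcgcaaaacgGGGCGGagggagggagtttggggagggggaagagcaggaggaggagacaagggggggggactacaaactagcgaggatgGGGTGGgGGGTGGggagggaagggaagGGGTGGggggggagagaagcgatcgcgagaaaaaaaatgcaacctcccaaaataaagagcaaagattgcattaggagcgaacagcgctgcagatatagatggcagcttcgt

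Promoters were in the RefSeq table for 7 of the 9 members, Klf5 and Klf10 being the others. All 7 were richer in G and C than the median of 52.4% over 32851 mouse promoters, from 59.2% in Klf7 to 78.4% in Klf3, and held 13 to 32 CpG pairs against a median of 6. A GC box was found in 6 of the 7, against 32.7% of all promoters, and a CACCC box in 4 of the 7, against 28.1%. Klf3 held 6 GC boxes and 3 CACCC boxes, and Klf4 held 4 GC boxes, 2 of which share a base. Klf9 was the member without either pattern, GGGCGG or CCACCC, though its promoter holds the shorter CACCC. The MEF2 site, found in 0.5% of all promoters, occurred in Klf2 at chr8:72318944-72318953 as CTAAATTTAG, which reads the same on both strands. The palindromic STAT site TTCNNNGAA, found in 7.0% of all promoters, occurred in Klf9 as TTCTGCGAA at chr19:23141193-23141201. An E-box, in 6.0% of all promoters, occurred in Klf4 and Klf6. Also sought were the ETS site (CCGGAAG), AP-1 site (TGACTCA), CRE (TGACGTCA), TATA box (TATAAA) and CArG box, each found in 0 of the 7. The CCAAT box occurred in 3 of the 7, against 33.8% of all promoters, and the AhR core GCGTG in 4, against 28.2%. These matches describe letters in a window and say nothing of binding.

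After 6 h of SC1 the family did not move as a block. Klf3, Klf10, Klf6, Klf2 and Klf4 rose, Klf7, Klf5 and Klf9 fell, and Klf13 did not pass the test. The changes ran from 1.91-fold higher for Klf3 to 1.38-fold lower for Klf7, with a median log2 fold change of 0.21 over the 9 members against -0.0052 over all genes tested. The test was limma with Benjamini-Hochberg adjustment over all 25439 genes and a threshold of 0.05. So many genes changed that passing is common: 38.3% of all genes passed, 18.1% higher and 20.2% lower with SC1. The 8 of 9 members that passed, 5 of them higher and 3 lower, are to be read against those shares. Groups that did not overlap were found for 8 of the 9 members and for 52.1% of all genes.

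**Figure D1:**
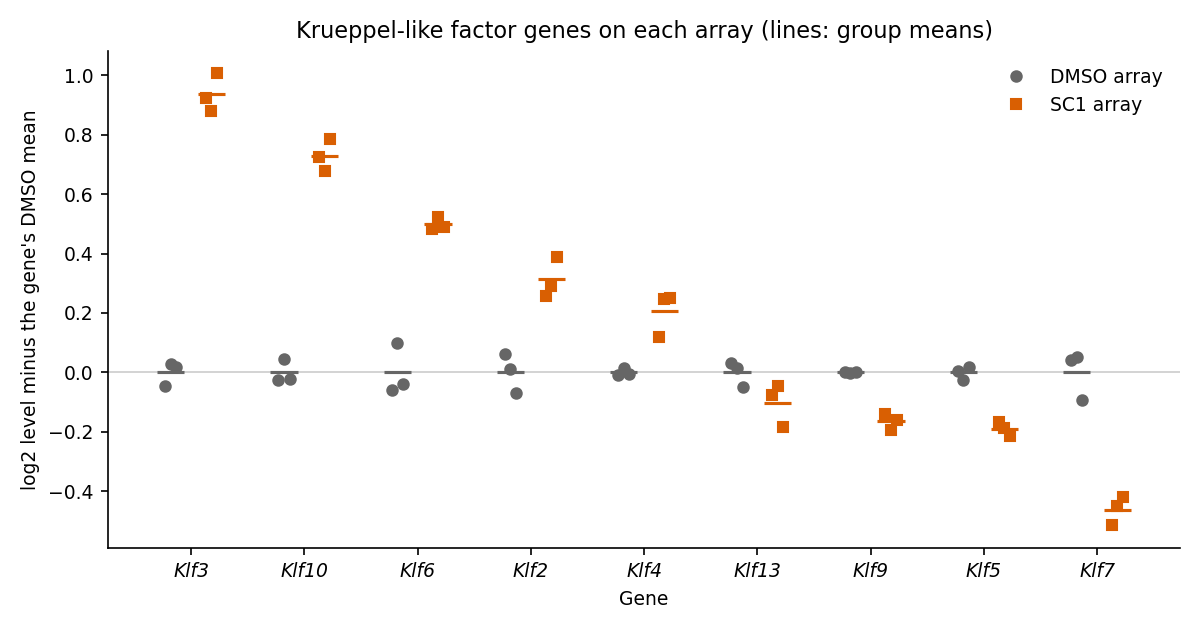
Level of each of the 9 genes on each array, as the log2 signal relative to the 75th percentile of its array minus the mean of the gene on the 3 DMSO arrays; circles are DMSO arrays, squares are SC1 arrays and short lines are group means. The SC1 arrays of Klf3, Klf10, Klf6, Klf2 and Klf4 lie above all DMSO arrays, those of Klf9, Klf5 and Klf7 lie below, and for Klf13 the groups overlap.

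Levels below are log2 signals relative to the 75th percentile of the same array, and differences are SC1 minus DMSO on that scale. A level depends on the probe as well as on the RNA, so levels of different genes are not set against each other. In these bulk samples, fewer cells of a kind and less RNA per cell cannot be told apart. All 6 arrays lay on 1 slide, and a pair of numbers with each scan gives the place on it. The first number was 1 for the 3 DMSO arrays and SC1 replicate 1, and 2 for the other SC1 arrays. The second number was shared by DMSO replicate 1 and SC1 replicate 2, and by DMSO replicate 2 and SC1 replicate 3. Differences among the 4 arrays with first number 1, and between those matched pairs, are given for each gene as differences within a position.

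Of the activators of the naive state, Klf2 and Klf4 rose and Klf5 fell. Klf2, which encodes a factor that sustains naive pluripotency and that ERK marks for breakdown at the protein level, was at 5.50, 5.45 and 5.37 on the DMSO arrays and at 5.70, 5.73 and 5.83 on the SC1 arrays. All SC1 arrays were above all DMSO arrays. The log2 fold change was 0.31 (SE 0.0570, 95% interval 0.17 to 0.45, n = 3 per group, limma adjusted p = 0.00754), or 1.24-fold. Differences within a position were 0.26, 0.23 and 0.38. Klf2 lost its call with the 8 spike-in probes as the scale (0.27, adjusted p = 0.256) and with either slide number as a block (adjusted p = 0.0865 and 0.0955).

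Klf4, one of the reprogramming factors and a target of STAT3, was at 4.31, 4.33 and 4.31 with DMSO and at 4.44, 4.56 and 4.57 with SC1. The groups did not overlap, and SC1 replicate 1 lay closest to the controls. Its log2 fold change was 0.21 (SE 0.0501, interval 0.083 to 0.33, limma adjusted p = 0.0216), or 1.15-fold, and the differences within a position were 0.12, 0.26 and 0.24. This was the least steady of the increases. Without any one of the 3 DMSO arrays, or without SC1 replicate 2 or 3, the difference stayed between 0.18 and 0.21 and the call was lost, with adjusted p from 0.0580 to 0.0696.

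The scaling of the arrays bears on the increases of Klf2 and Klf4. The 75th percentile of the signal, which was set equal on all arrays, had ranged from 532.2 to 539.0 with DMSO and from 443.3 to 493.3 with SC1. Before scaling, the Klf4 signal was 10677.1, 10717.4 and 10605.6 with DMSO and 10689.2, 10843.3 and 10507.8 with SC1, so the groups overlapped. The unscaled Klf2 signal was 24390.7, 23254.3 and 22064.5 with DMSO and 25613.3, 24362.2 and 25187.4 with SC1, and here too the groups overlapped. The groups of both genes separated after scaling, and the unscaled Klf2 signals overlapped only between the lowest SC1 array and the highest DMSO array. The mean log2 signal of the 8 spike-in probes ran from 13.15 to 13.24 with DMSO and from 12.91 to 13.23 with SC1. With the spike-in probes as the scale the Klf4 difference was 0.16 (adjusted p = 0.559), and with either slide number as a block it was 0.12 and 0.25 (adjusted p = 0.203 and 0.0976).

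Klf5, whose product supports self-renewal in the inner cell mass and acts beside KLF2 and KLF4, moved the other way. It was at 4.79, 4.76 and 4.81 with DMSO and at 4.62, 4.60 and 4.57 with SC1, and all SC1 arrays were below all DMSO arrays. The log2 fold change was -0.19 (SE 0.0384, interval -0.28 to -0.095, limma adjusted p = 0.0114), or 1.14-fold lower, with -0.17, -0.19 and -0.19 within a position. The size of this fall depended on the scaling: with quantile normalization it was -0.094 (adjusted p = 0.107), and in the authors' deposited table of log2 values the group means differed by -0.094 (adjusted p = 0.102). The deposited values lie close to quantile-normalized ones, so these are not separate checks. The call was also lost with spike-in scaling (-0.23, adjusted p = 0.364) and with either slide number as a block (-0.17 and -0.19, adjusted p = 0.111 and 0.139). The intervals of Klf2 and Klf4 overlapped each other, and both lay above 0 while that of Klf5 lay below 0.

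Klf3 rose most of the 9. It encodes a repressor that works through CtBP and is itself known as a target of KLF1 in erythroid cells. It was at 3.32, 3.40 and 3.38 with DMSO and at 4.29, 4.25 and 4.37 with SC1. Every SC1 array lay far above every DMSO array. The log2 fold change was 0.94 (SE 0.0501, interval 0.81 to 1.06, limma adjusted p = 8.16e-05), which is 1.91-fold and larger than that of 97.2% of all genes tested. Differences within a position were 0.92, 0.92 and 0.98. The unscaled signal also separated the groups, at 5394.5 to 5601.6 with DMSO and 8713.2 to 9660.8 with SC1. Klf3 passed in all 21 alternative ways of processing, with differences from 0.89 to 1.01.

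Klf6 and Klf7 form a closely related pair with similar activation domains, and they moved in opposite directions. Klf6, an early response gene in injured tissue and a suppressor of growth in several cancers, was at 2.53, 2.69 and 2.55 with DMSO and at 3.07, 3.11 and 3.08 with SC1. All SC1 arrays were above all DMSO arrays. The log2 fold change was 0.50 (SE 0.0549, interval 0.36 to 0.63, limma adjusted p = 0.00111), or 1.41-fold, with 0.48, 0.58 and 0.39 within a position. The call was lost with the second slide number as a block (0.49, adjusted p = 0.0596) and in no other of the 21 alternatives.

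Klf7, known for its part in the growth of sensory neurons, fell most of the 9. Its levels were 1.66, 1.66 and 1.52 with DMSO and 1.10, 1.16 and 1.19 with SC1, so that no SC1 array reached the lowest DMSO array. The log2 fold change was -0.46 (SE 0.0573, interval -0.60 to -0.32, limma adjusted p = 0.00175), or 1.38-fold lower. Differences within a position were -0.51, -0.49 and -0.47, and the call was kept in all 21 alternatives. The intervals of Klf6 and Klf7 lay on either side of 0 and did not overlap.

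Among the members that recruit SIN3A, Klf10 rose, Klf9 fell slightly and Klf13 did not pass. Klf10, first described as a TGF-beta-inducible early gene, was at 3.15, 3.22 and 3.15 with DMSO and at 3.90, 3.85 and 3.96 with SC1. The groups lay well apart. The log2 fold change was 0.73 (SE 0.0478, interval 0.61 to 0.85, limma adjusted p = 0.000163), or 1.66-fold and above that of 95.6% of all genes, with 0.73, 0.70 and 0.74 within a position. Klf10 passed in all 21 alternatives, with differences from 0.69 to 0.79.

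Klf9, which is induced by thyroid hormone and by glucocorticoids, was at 3.73 on each DMSO array and at 3.59, 3.53 and 3.57 on the SC1 arrays. The SC1 arrays were all lower, by a log2 fold change of -0.16 (SE 0.0378, interval -0.26 to -0.072, limma adjusted p = 0.0175), or 1.12-fold lower. Within a position the differences were -0.14, -0.20 and -0.16. The call was lost in 12 of the 21 alternatives, among them quantile normalization (-0.088, adjusted p = 0.0977) and leaving out any one of the 3 DMSO arrays or SC1 replicate 3 (-0.17 to -0.16, adjusted p from 0.0508 to 0.0563). Its change was smaller in size than the median of 0.17 over all genes.

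Klf13, whose product controls a chemokine gene in T cells, was at 2.26, 2.24 and 2.18 with DMSO and at 2.15, 2.18 and 2.04 with SC1. The groups overlapped at one SC1 array, and the log2 fold change, -0.10, was short of the threshold (SE 0.0534, interval -0.23 to 0.029, limma adjusted p = 0.191). The interval spans 0, so neither direction was resolved. Within a position the differences were -0.076, -0.078 and -0.20. Klf13 passed as lower with the normexp background model and 75th percentile scaling (-0.16, adjusted p = 0.0191). In that setting 12050 genes passed, against 9751 in the values reported.

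**Figure D2:**
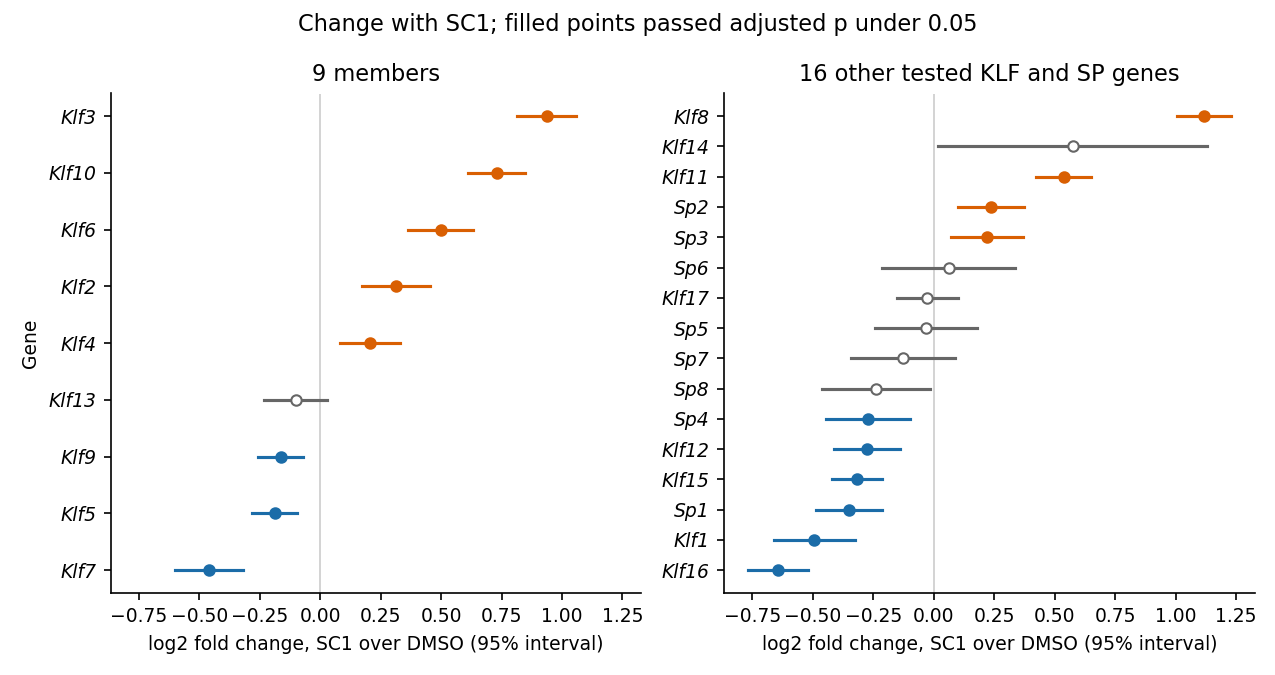
Log2 fold change of SC1 over DMSO with its 95% interval, for the 9 members (left) and the 16 other tested KLF and SP genes (right); filled points passed an adjusted p of 0.05. Klf3 at 0.94 and Klf7 at -0.46 are the ends of the left panel, and Klf8 at 1.12 and Klf16 at -0.64 those of the right.

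Ordered by fold change, the members were Klf3, Klf10, Klf6, Klf2, Klf4, Klf13, Klf9, Klf5 and Klf7. Intervals of neighbours in this order overlapped in all but 2 places, between Klf4 and Klf13 and between Klf5 and Klf7. Against the whole array these are moderate changes. The absolute log2 fold change was 0.66 or more for the top 10% of all genes and 1.76 or more for the top 1%, and of the members Klf3 and Klf10 were in the top 10%. No member reached 2-fold, while 4.16% of all genes passed with at least a 2-fold change.

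**Figure D3:**
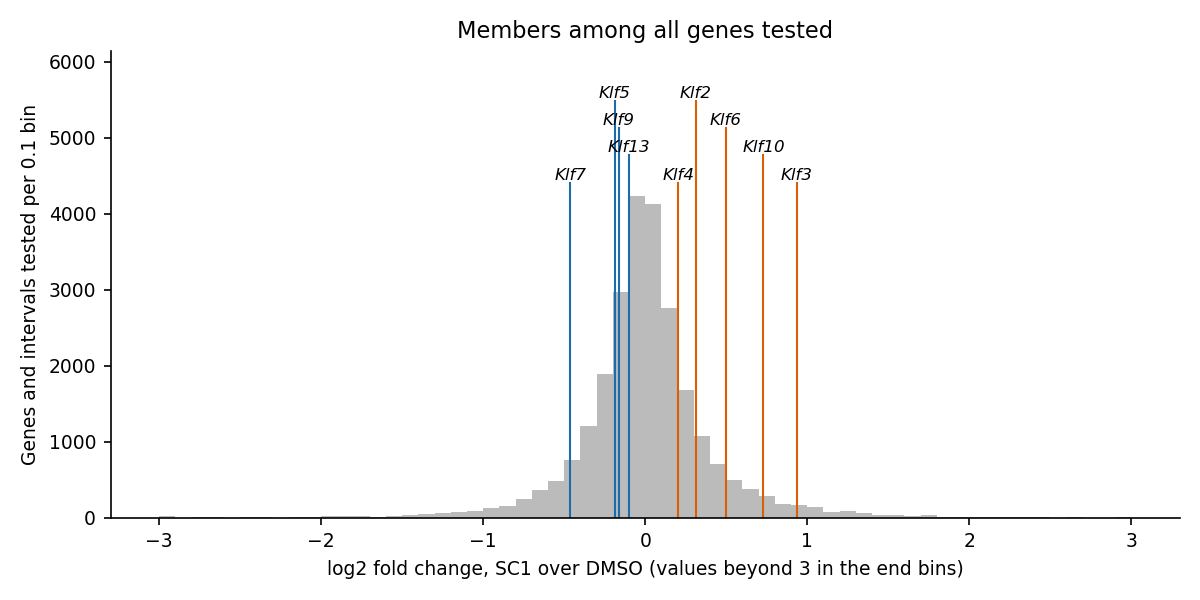
Number of genes and intervals tested in each bin of 0.1 of the log2 fold change, SC1 over DMSO, with the 9 members as labelled vertical lines whose height has no meaning. Klf3 and Klf10 stand in the right tail, and Klf4, Klf5, Klf9 and Klf13 lie inside the central peak.

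Of 17 other KLF and SP genes 16 were tested: 4 rose, 6 fell and 6 did not pass, beside 38.3% of all genes passing. Sp9 was not well above background on any array. Their median log2 fold change was -0.080, but 0.056 with normexp and 75th percentile scaling and -0.022 with normexp and quantile normalization, so the sign of the median depends on the processing. Klf8, which like Klf3 encodes a repressor that works through CtBP, had the largest rise in the whole KLF and SP family. It was at 0.93, 0.87 and 0.87 with DMSO and at 2.03, 2.04 and 1.95 with SC1, a log2 fold change of 1.12 (SE 0.0455, limma adjusted p = 3.44e-05). The groups were far apart, and the call held in all 21 alternatives.

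Klf11 encodes the nearest relative of KLF10 and also recruits SIN3A. It was at -0.70, -0.58 and -0.62 with DMSO and at -0.077, -0.12 and -0.089 with SC1, a rise of 0.54 (SE 0.0472, limma adjusted p = 0.000468). Klf10 and Klf11 thus both rose. Klf16, another member of the SIN3A group, fell by 0.64 on the log2 scale (SE 0.0506, limma adjusted p = 0.000310), from 0.77, 0.83 and 0.86 to 0.15, 0.14 and 0.25. The remaining 7 that passed changed by less than 0.5. Klf12, the last of the genes for CtBP-recruiting KLFs, was among those that fell, at -0.27 (limma adjusted p = 0.0112), a call lost in 4 of the 21 alternatives.

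Of 11 genes for corepressors and coactivators of KLF proteins 1 rose, 2 fell and 8 did not pass, beside the 38.3% of all genes that passed, and the median was 0.061. The largest change was in Ctbp2, for one of the CtBP corepressors that KLF3, KLF8 and KLF12 bind. It was at 5.52, 5.35 and 5.46 with DMSO and at 3.42, 3.42 and 3.32 with SC1. Every SC1 array was far below every DMSO array, with a log2 fold change of -2.05 (SE 0.0610, limma adjusted p = 1.37e-05), or 4.15-fold lower, larger in size than that of any KLF or SP gene. Its paralogue Ctbp1 was at 0.10 and missed the threshold (adjusted p = 0.0961).

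Sin3a, for the scaffold that KLF9, KLF10, KLF11, KLF13 and KLF16 bind, was at 2.56, 2.56 and 2.50 with DMSO and at 2.09, 2.10 and 2.24 with SC1. It fell by 0.40 on the log2 scale (SE 0.0556, limma adjusted p = 0.00282) and lost its call only with the second slide number as a block (adjusted p = 0.0688). Kat2b, a histone acetyltransferase gene, rose by 0.24 (adjusted p = 0.00966) and lost its call in 2 alternatives. Of the list, Ctbp2 alone changed by 2-fold or more.

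Ubiquitin ligases and other modifiers set the stability of KLF proteins, which arrays of RNA do not show. Among 11 such genes there were 2 that rose, 3 that fell and 6 that missed the threshold, beside 38.3% of all genes passing. The median of the 11 was 0.035 and turned to -0.0052 with spike-in scaling. Fbxw7, for a ligase subunit that targets KLF2 and KLF5, fell by 0.43 at its brighter probe and by 0.63 at its other probe (limma adjusted p = 0.00251 for the first, lost with the second slide number as a block at 0.0539). Both probes were lower with SC1. Btrc, for the ligase subunit beta-TrCP that binds ERK-phosphorylated KLF4, rose by 0.52 at one probe (adjusted p = 0.000350), but its other probe had 0.047 and did not pass. Vhl rose by 0.30 (adjusted p = 0.00203), and Usp10, for a deubiquitinase, fell by 0.21 (adjusted p = 0.0123), calls lost in 2 and 6 of the 21 alternatives.

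Of 18 genes in the pathways that drive KLF genes 17 were tested. Of these 3 rose, 3 fell and 11 did not pass, beside 38.3% of all genes passing. Mef2c was not well above background on any array. Their median was 0.034 and turned to -0.0063 with spike-in scaling. Stat3, which carries the LIF signal to Klf4, was at 4.10, 4.10 and 3.998 with DMSO and at 4.54, 4.40 and 4.54 with SC1, a rise of 0.42 (SE 0.0591, limma adjusted p = 0.00271), and its other probe gave 0.36. Stat3 lost its call with spike-in scaling and with the second slide number as a block (adjusted p up to 0.0826). Mapk7, which encodes ERK5, fell by 0.46 (SE 0.0452, adjusted p = 0.000733), from 3.87, 3.92 and 3.80 to 3.39, 3.41 and 3.42.

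The receptor genes through which hormones induce Klf9 moved in opposite directions. Thra, for a thyroid hormone receptor, rose by 0.32 (adjusted p = 0.00301) and by 0.37 at its other probe, and Nr3c1, for the glucocorticoid receptor, fell by 0.28 (adjusted p = 0.0115). The other Nr3c1 probe gave -0.24 and did not pass (limma adjusted p = 0.0842). Tgfbr1, for a TGF-beta receptor, rose by 0.23 (adjusted p = 0.0297), and Lifr, for the LIF receptor, fell by 0.16 (adjusted p = 0.0379). Neither call was steady: Tgfbr1 lost its call in 12 of 21 alternatives, 5 of them with an array left out, and Lifr in 14. The other Tgfbr1 probe gave 0.36 and did not pass. Of the other Lifr probes, the one at -0.27 passed and the one at -0.20 did not. Thra lost its call in 2 alternatives and Nr3c1 in 3.

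Of 16 genes reported as targets of KLF2, KLF4 or KLF5 or of KLFs in general, 8 rose, 4 fell and 4 did not pass. Of all genes tested, 18.1% passed as higher and 20.2% as lower. The median log2 fold change of the 16 was 0.21, and 0.12 when the probes of a gene were averaged. Tfcp2l1, for a naive-state transcription factor, was at 2.99, 2.94 and 3.02 with DMSO and at 4.07, 4.06 and 4.11 with SC1, a rise of 1.10 (SE 0.0416, limma adjusted p = 2.75e-05). Its other probe gave 1.05. Fbxo15, a marker gene of embryonic stem cells, rose by 0.72 (adjusted p = 0.000203), and Cdkn1c, for a cell cycle inhibitor, by 0.59 (adjusted p = 0.000169).

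Tcl1, for a coactivator of AKT, was the most reduced of these genes. It was at 3.68, 3.64 and 3.79 with DMSO and at 2.86, 2.86 and 2.94 with SC1, a fall of 0.82 on the log2 scale (SE 0.0556, adjusted p = 0.000184). The list therefore held changes in both directions, as did the KLF genes and all genes tested. Nanog, Esrrb, Pou5f1 and Cdh1 did not pass, Nanog with 0.21 (adjusted p = 0.0541) and Pou5f1 with 0.12 (adjusted p = 0.185). With spike-in scaling 3 of the 16 rose and 3 fell.

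**Figure D4:**
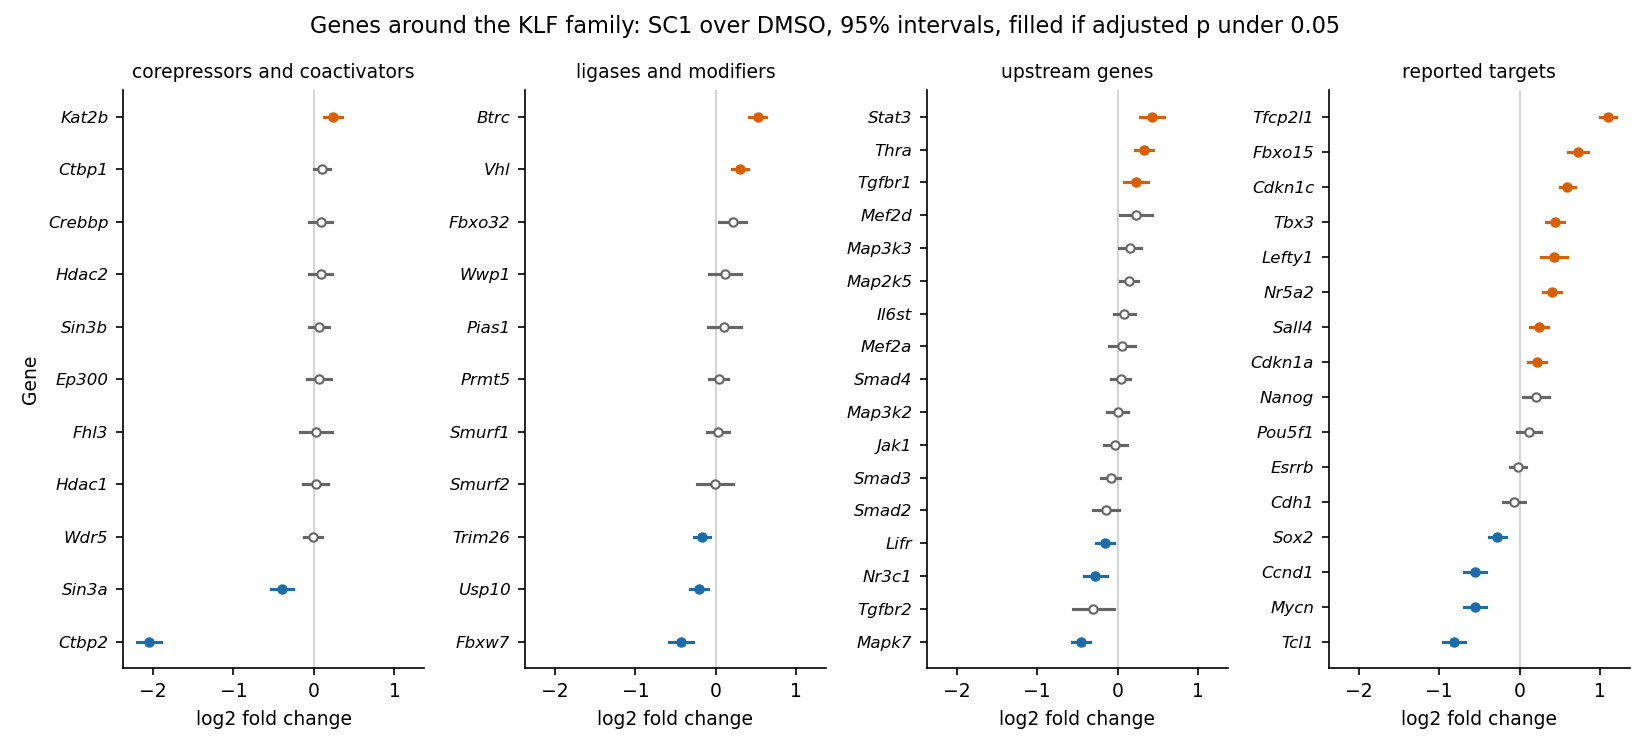
Log2 fold change, SC1 over DMSO, with 95% intervals for 4 lists of genes around the KLF family; filled points passed an adjusted p of 0.05. Ctbp2 at -2.05 stands apart in the first panel, and the reported targets spread from Tcl1 at -0.82 to Tfcp2l1 at 1.10.

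Over the 6 arrays, the genes whose centred levels lay closest to those of Klf3 were Abat (Euclidean distance 0.0786), Tnfrsf1a (0.0901) and Fgf4 (0.0916), out of 15493 named genes compared. The log2 fold changes of these 3 were 0.95, 0.91 and 0.89, beside 0.94 for Klf3. For Klf7 the closest were Myo1f (0.0489) and Tmem151b (0.0527), with -0.44 and -0.47 beside -0.46. These distances cover 6 arrays in 2 groups and are given as a description.

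All 10 markers of embryonic stem cells, the labelled cell type, were well above background on all 6 arrays. Of them 2 rose, 5 fell and 3 did not pass, and their summed level relative to the 75th percentile, on a linear scale, was 646.0 to 671.6 with DMSO and 640.5 to 680.6 with SC1. Of 8 tested trophoblast markers 5 rose and 2 fell, with Elf5 and Hand1 not above background on any array. Those that fell were Cdx2 and Eomes, with log2 fold changes of -1.49 and -0.39. The Cdx2 call was lost in 10 of 20 alternatives. The summed level of the trophoblast list was 16.8 to 17.4 with DMSO and 37.4 to 39.6 with SC1. Of 10 primitive endoderm markers 4 rose and 6 did not pass, with sums of 14.0 to 15.5 and 22.5 to 22.7. Gata4, counted among the 4, rose by 0.18, a call lost in 16 of 21 alternatives. The 6 were Gata6, Sox7, Sox17, Dab2, Amn and Cubn. Of 8 tested markers of the epiblast after implantation 7 fell and 1 did not pass, with sums of 104.3 to 110.3 and 58.7 to 59.9. Cer1 was not above background on any array, and T was above it on too few arrays to be tested. Of 8 tested fibroblast markers 4 rose and 1 fell, with sums of 157.6 to 161.6 and 160.1 to 166.6, and Lum and Postn were not above background. The counts in these lists are to be read against all genes, of which 18.1% passed as higher and 20.2% as lower. These sums weigh bright probes most: Tfap2c, the brightest of the trophoblast list, went from a mean log2 level of 3.49 to 4.86, Lama1 of the primitive endoderm list from 3.66 to 4.35, and Dnmt3b of the epiblast list from 6.40 to 5.63. Each of these made up most of the shift in the sum of its list. Whether these shifts have a part in the KLF values was not tested.

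**Figure D5:**
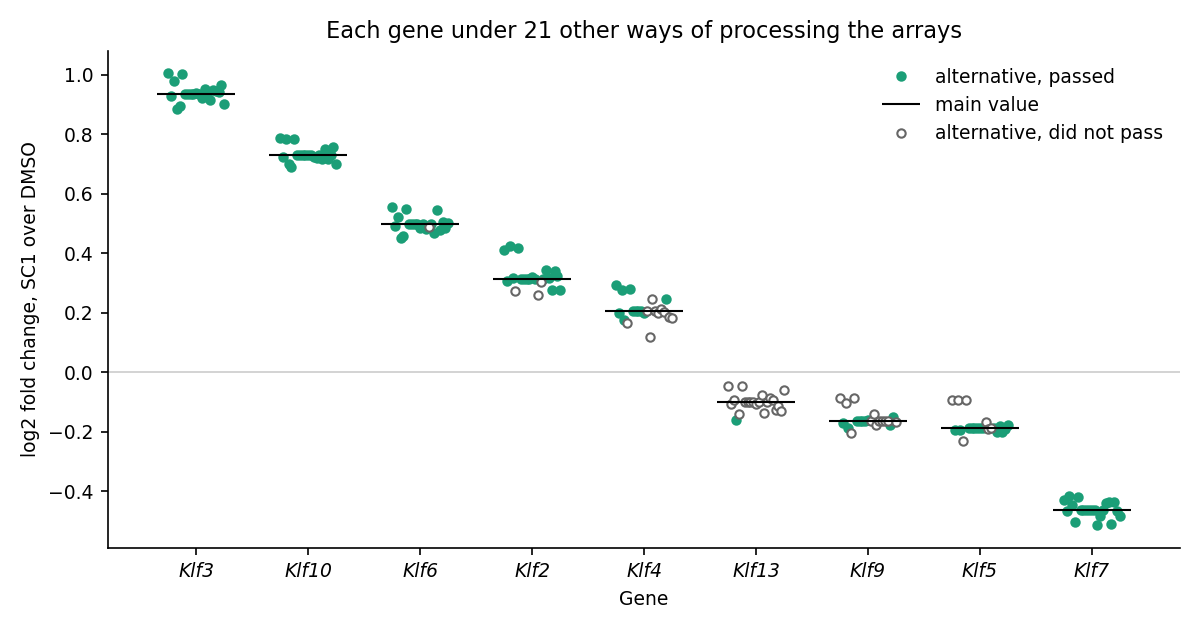
Log2 fold change of each member under 21 alternative ways of processing the arrays; filled points passed, open points did not, and the line is the value in the text. Klf3, Klf10 and Klf7 passed throughout, Klf13 passed once, and no member crossed 0.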

How the data were processed

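Total RNA of 6 samples was amplified and labelled with Cy3 for 1-colour arrays, per the labels' protocols. Agilent Feature Extraction 10.7 made the spot intensities, per the submitters' processing notes. The authors deposited 1 intensity table per array: a processed signal without background and spatial trend, raw median intensities of spot and background, and 0 or 1 flags, per the file headers. They also deposited a table of log2 intensities, whose normalization is not given in the sources used here. It followed the direction and scale of the scanner signals, and each column had a median of 5.18. The largest gap to quantile-normalized log2 signals was 0.128 to 0.131 per array. The deposited values are therefore not a check separate from quantile normalization.

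Each array held 62976 spots, none saturated, and 137 to 201 outlier spots per array were left out. The share of probes well above background was 65.0% to 65.6% with DMSO and 63.2% to 65.1% with SC1. From the corrected intensity a log2 value per probe was computed and the 75th percentile of the array subtracted. Probes well above background on all 3 arrays of a group were kept (35321 of 55681). Gene symbols were matched by accession to a RefSeq table (27235 probes), and the brightest probe stood for a gene. The comparison of the groups used limma 3.58.1 (R 4.3.3): lmFit, then eBayes, without covariates, with two-sided p-values adjusted by Benjamini-Hochberg. A permutation of 3 against 3 arrays cannot give a p under 0.1, so none was used. The number of arrays limits the precision. The fit was tested on simulated data. It recovered 5 of 50 genes changed 1.25-fold and 31 of 50 changed 1.5-fold. At 2-fold it recovered 41 of 50 and at 4-fold 49 of 50, with 7 false calls. That simulation changed 50 genes at each of these sizes among 25416, while 9751 of 25439 genes passed in the data. The recovered shares therefore do not carry over to the test reported here. A gene that did not pass may still have changed by a small amount.

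The members and gene lists were chosen with earlier results of these data known. All members are named, other KLF and SP genes when they passed with an absolute log2 fold change of at least 0.5, and in other lists up to 4 passing genes with the smallest p. Klf12, Ctbp1, Tgfbr1, Lifr, Nanog, Esrrb, Pou5f1, Cdh1 and the probes below background lie outside this rule and were named after their values were seen. The same holds for the markers Cdx2, Eomes, T, Gata6, Sox7, Sox17, Dab2, Amn and Cubn. The alternatives covered scaling, background, filters, choice of probe, model settings, blocks, the threshold and each array left out. No coordinates of array probes are given, since the array was designed on mm9 and the RefSeq sequences are of GRCm38.p6. The third of the genes most like Klf7 is not reported here.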

Additional observations from a re-analysis of the deposited data

How the results depend on the processing

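No member changed direction in any of the 21 alternatives, and Klf3, Klf7 and Klf10 kept their calls in all of them. Over these alternatives the median log2 fold change of the 9 members ran from 0.12 with the first slide number as a block to 0.30 with quantile normalization. In the values reported 8 members and 9751 genes passed. In separate fits, which need not call the same genes, 4 members and 5086 genes passed with spike-in scaling, 4 and 5545 with the first slide number as a block, 3 and 3324 with the second, and 5 and 5792 at an adjusted p of 0.01. With every probe tested, 8 member probes passed, but 4 with spike-in scaling, 4 with the first slide number, 2 with the second and 5 at 0.01. The slide blocks leave out arrays whose number is not shared between groups, so fewer arrays bear on the difference. With each array left out, 6 to 8 members, 5 to 7 member probes and 7747 to 8390 genes passed. Quantile normalization passed 6 members, 5 higher and 1 lower, and 9708 genes. The authors' deposited log2 values, which lie close to quantile-normalized ones, passed the same counts of members and 9652 genes. Normexp with 75th percentile scaling passed all 9 members, 5 higher and 4 lower, but also 12050 genes. Among all genes that passed, 47.3% were higher, but 57.9% with normexp and 75th percentile scaling.

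Samples with the same replicate number did not deviate together (correlations -0.0133, -0.0365 and -0.0154). With the replicate block 6 members, 5 member probes and 7910 genes passed, and Klf4 (adjusted p = 0.0525) and Klf9 (adjusted p = 0.0635) lost their calls. The unscaled signals of the members ran from 1014.1 to 25613.3, all well above background.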
